A study of Mus musculus with 4 samples.

Results

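Cdkn1a, Cdkn1c, Rb1 and E2f2, 4 genes of cell-cycle exit, were followed through the MyoD binding sites of mouse myotubes. Every row with 1 of these symbols was taken from both deposited peak lists, and a gene with no row was counted as having no peak. The genes were chosen by function and by the presence or absence of peaks in earlier results of these data, so peak presence is described here and not tested. Rb1 and E2f2 had rows, and Cdkn1a and Cdkn1c had none. The files name 7235 genes in all, and the 4 genes held 7 of the 11907 peaks in the list with pyruvate and 8 of the 19338 peaks in the list without.

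Myotubes are the multinucleated fibres that form when myoblasts fuse, and they no longer divide. Here they came from primary C57BL/6 myoblasts of mice aged 2 weeks, differentiated for 5 days in low serum, then held for 24 hours in differentiation medium with pyruvate or in the same medium without it. MyoD was precipitated in 1 library per condition, and 1 input per condition was not analysed here. A difference between the lists therefore has no replicate check and carries no p-value. Which list belongs to which condition rests on the sample titles, because part of the files' naming could be read the other way round. Of 10 myotube genes used to check the cell type, among them Myog and Ttn, 10 had a peak, 7 in both lists and 3 with pyruvate only. Markers of proliferating myoblasts (2 of 4 genes), fibroblasts (4 of 6) and macrophages (2 of 3) had peaks too, and a peak shows where MyoD was found, not which cells were present. The files give no read depth, and an absent peak may only have been too weak to be listed.

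Withdrawal from the cell cycle is a fixed step of muscle differentiation. Cdkn1a encodes the inhibitor p21 and Cdkn1c the inhibitor p57, both of which block cyclin-dependent kinases. With the kinases blocked, the retinoblastoma protein encoded by Rb1 stays unphosphorylated and holds E2F factors, such as that encoded by E2f2, away from the activation of S-phase genes. MyoD is known to induce Cdkn1a and Rb1 as myoblasts differentiate, and it binds the E-box, a DNA motif of the form CANNTG.

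The sequences at annotated start sites show which E-boxes lie there. RefSeq start-site windows for GRCm38.p6, each 250 bases before to 50 after a start, matched 2 of the 4 genes, each with 2 windows, and all 4 are printed. Capitals mark every CANNTG, a form that reads alike on both strands.
Cdkn1a, the upstream start, chr17:29090729-29091028, plus strand: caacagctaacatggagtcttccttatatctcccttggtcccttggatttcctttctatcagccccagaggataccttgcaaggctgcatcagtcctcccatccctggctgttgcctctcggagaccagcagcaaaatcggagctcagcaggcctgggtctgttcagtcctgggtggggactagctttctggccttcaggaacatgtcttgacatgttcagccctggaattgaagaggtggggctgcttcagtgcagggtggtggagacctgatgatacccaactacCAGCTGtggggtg
Cdkn1a, the downstream start, chr17:29093519-29093818, plus strand: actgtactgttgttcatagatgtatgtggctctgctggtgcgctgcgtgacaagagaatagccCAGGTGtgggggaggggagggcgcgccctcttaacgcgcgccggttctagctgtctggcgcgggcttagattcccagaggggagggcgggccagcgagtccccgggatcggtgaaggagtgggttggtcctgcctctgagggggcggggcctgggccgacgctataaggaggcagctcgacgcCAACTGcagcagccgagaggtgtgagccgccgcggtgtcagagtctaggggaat
E2f2, the upstream start, chr4:136172024-136172323, plus strand: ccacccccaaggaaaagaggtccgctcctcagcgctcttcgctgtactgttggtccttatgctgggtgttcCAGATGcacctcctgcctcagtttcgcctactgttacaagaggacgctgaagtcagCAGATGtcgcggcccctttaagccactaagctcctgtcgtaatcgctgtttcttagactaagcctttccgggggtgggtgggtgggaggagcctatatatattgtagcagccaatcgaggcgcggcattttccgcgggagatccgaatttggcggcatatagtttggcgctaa
E2f2, the downstream start, chr4:136180532-136180831, plus strand: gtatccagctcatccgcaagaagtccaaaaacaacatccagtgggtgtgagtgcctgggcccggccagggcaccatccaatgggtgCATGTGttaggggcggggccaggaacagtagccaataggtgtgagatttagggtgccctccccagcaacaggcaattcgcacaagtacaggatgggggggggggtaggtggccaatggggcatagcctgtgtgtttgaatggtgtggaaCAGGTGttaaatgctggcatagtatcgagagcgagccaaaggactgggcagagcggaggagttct
The upstream Cdkn1a window held CAGCTG at 37 bases after the start. The downstream one held CAGGTG at 187 bases before the start and CAACTG at 4 bases before it. The upstream E2f2 window held CAGATG at 179 and at 123 bases before the start, and the downstream one held CATGTG at 164 and CAGGTG at 15 bases before it. The forms CAGCTG and, read on either strand, CAGGTG are the cores MyoD is known to prefer, so both Cdkn1a windows and the downstream E2f2 window had such a core and the upstream E2f2 window had none. A CANNTG was in 72.3% of all 32851 windows of this length, and 1 of these cores was in 32.9%, so either is common. A match is a description of the letters and not of a bound site.

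The inhibitor genes came first in the order of action, and neither had a row. No row named Cdkn1a or Cdkn1c in the list with pyruvate or in the list without, so no peak was assigned to either gene or its 2000-base flanks. The files list a gene only where a peak touches it, so they do not show whether their annotation held these symbols, and a missing row does not establish that no peak touched the gene. By symbol, 24.7% of the 21900 RefSeq protein-coding genes had a row in either file. That share followed gene length, with 9.07% of genes under 10 kb having a row and 60.4% of genes of 100 kb or more. Cdkn1a spans 9.74 kb and Cdkn1c 2.72 kb in RefSeq, while E2f2 spans 23.8 kb and Rb1 133.1 kb. The part of gene length in the absence of rows was not tested.

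Although Cdkn1a had no row, a group of MyoD peaks lay between the genes that flank it. In RefSeq order Cdkn1a sits between Srsf3, a splicing factor gene, and Rab44, a gene of the Rab GTPase family. In the mm9 coordinates of the files, 89689 bases separate the end of Srsf3 from the listed flank of Rab44, chr17:29180312-29270000. This stretch held 6 peaks with pyruvate and 9 without, where the mean density of each list would give 0.408 and 0.659. Since the files give no position for Cdkn1a, distances are counted from the end of Srsf3.

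The widest of these peaks stood near the top of its list. With pyruvate it was 957 bases wide, at chr17:29193085-29194042, and ranked 10 by width among all 11907 peaks. Without pyruvate the same place held 2 narrower peaks, at chr17:29193164-29193489 (325 bases) and chr17:29193672-29194011 (339 bases). All 3 lie in a flank of ENSMUSG00000085912, a gene that the files list without a symbol, 12774 bases and more beyond Srsf3. Over shared peaks of all widths with pyruvate, 0.432% overlapped more than 1 peak of the other list. The share among peaks as wide as this one was not analysed here.

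Another 4 sites of the stretch were in both lists. Their peaks were 509, 296, 335 and 237 bases wide with pyruvate, against 296, 232, 223 and 278 bases without, so the peak was wider with pyruvate at 3 of the 4 sites. A peak of 169 bases was found with pyruvate only, and peaks of 168, 215 and 187 bases were found without pyruvate only. In all, 5 of 6 peaks with pyruvate and 6 of 9 without had a partner. The shared peaks of 335 and 237 bases with pyruvate, and their partners, were also assigned to ENSMUSG00000085912. The unpartnered peaks are among the narrower ones: 169 bases was the narrowest width in the list with pyruvate, and at most 36.6% of the list without pyruvate was narrower than any of the other 3.

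Around Cdkn1c the picture differed. Its flanking genes with a row were Kcnq1, a potassium channel gene, and Cars, a cysteinyl-tRNA synthetase gene, and the 130179 bases between them, chr7:150612956-150743134, held the centre of 0 peaks with pyruvate and 0 without. A 237-base peak of Cars at its edge, chr7:150743068-150743305 and without pyruvate only, began inside the stretch and had its centre in Cars. The mean density of each list would give 0.592 and 0.957 peaks, so a stretch of this length with none is not unusual. Cdkn1c is an imprinted gene whose control region lies inside Kcnq1, and MyoD has been reported to act on Cdkn1c through that region in mouse muscle cells. Kcnq1 itself had 3 peaks with pyruvate and 2 without. One site was in both lists, at chr7:150524622-150524985 with pyruvate (363 bases) and chr7:150524614-150524915 without (301 bases). The others were 212 and 243 bases wide with pyruvate and 217 bases wide without, and none of these had a partner. Whether any of them falls in the control region was not analysed here.

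**Figure D1:**
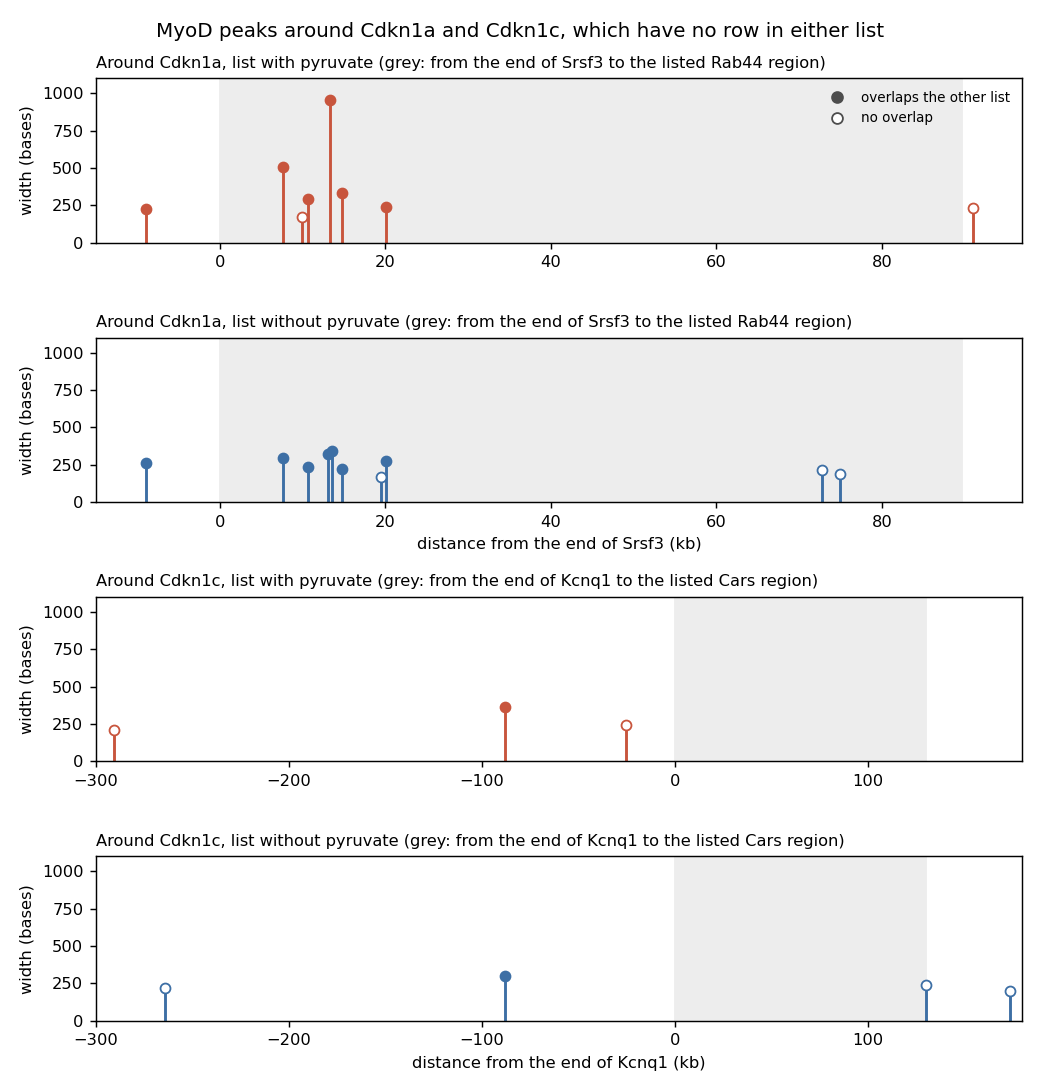
MyoD peaks around Cdkn1a (upper panels) and Cdkn1c (lower panels), with distance from the end of the left neighbour on the x axis (kb) and peak width on the y axis (bases); each stem is a peak, filled where it overlaps the other list, and grey marks the stretch between the neighbours. The 957-base peak with pyruvate stands out at about the place where the list without pyruvate has peaks of 325 and 339 bases, and the stretch around Cdkn1c holds the centre of 0 peaks in either list, with the Cars peak of 237 bases without pyruvate at its right edge.

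Rb1, the pocket protein gene, had 2 peaks with pyruvate and 4 without. It lies on chromosome 14 at 73583480 to 73725629 on the minus strand and its region is 142150 bases long, so its peaks were sparse, with 0.141 per 10 kb with pyruvate and 0.281 without. All of them fell in the first 12813 bases of the gene. Both peaks with pyruvate had a partner, and 2 of the 4 without pyruvate did.

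The shared part of Rb1 was a cluster about 12 kb inside the gene. With pyruvate it held peaks at chr14:73713312-73713550 (238 bases) and chr14:73713794-73713966 (172 bases), which are 244 bases apart. Without pyruvate the matching peaks were at chr14:73713299-73713602 (303 bases) and chr14:73713805-73713986 (181 bases). The differences in width, with minus without pyruvate, were -65 and -9 bases, and the peaks with pyruvate lay almost wholly within those without, with 100% and 93.6% of their bases shared. Over all 8444 peaks with a single partner on each side, the median difference was -22.0 bases (interquartile range -72.0 to 29.0), a range that holds both values.

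The other sites in Rb1 were seen without pyruvate only. A peak at chr14:73724936-73725236 (300 bases) started 393 bases inside the gene, so it lay close to the start site. It was wider than 73.7% of its list, and the nearest peak with pyruvate was 10970 bases away. A narrow peak at chr14:73712816-73712979 (163 bases) lay 333 bases beyond the last peak with pyruvate, and 8.07% of its list was narrower. Promoter-proximal here means no more than 2 kb from the start of a gene's listed region (or in a flank of unknown side). Later starts, such as the downstream RefSeq start of E2f2, were not counted, though the 204-base E2f2 peak with pyruvate may lie near that start. By this rule alone, the peak near the start made Rb1 the 1 gene of the 4 with a promoter-proximal peak. Among the 7235 genes, 17.7% had such a peak without pyruvate only, so this pattern is common in these lists. Outside Rb1, neither list had a peak within 50 kb.

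E2f2, an activating E2F factor gene and a target of retinoblastoma control, had 5 peaks with pyruvate, the most of the 4 genes, and 4 without, as many as Rb1. It lies on chromosome 4 at 135728309 to 135751972 on the plus strand, 23664 bases in all, which gives 2.11 peaks per 10 kb with pyruvate and 1.69 without. In the list with pyruvate 5.55% of 4704 genes had at least 5 peaks, and in the list without 12.03% of 6515 genes had at least 4. Having more peaks with pyruvate than without was the less common direction, found in 16.9% of the genes in the files, against 53.8% with more peaks without. E2f2 is in the smaller set and Rb1 in the larger one. Neither gene shared a peak with another gene region.

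The widest E2f2 peaks lay in the first 6 kb of the gene. With pyruvate they were at chr4:135733540-135734169 (629 bases) and chr4:135730342-135730958 (616 bases), and 98.8% and 98.6% of the list was narrower. Another peak lay between them, at chr4:135733072-135733382 (310 bases). All 3 overlapped the other list.

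Without pyruvate the same part of E2f2 held 4 peaks. The site of the 616-base peak was split there into chr4:135730368-135730716 (348 bases) and chr4:135730770-135730968 (198 bases), 54 bases apart. The other sites were at chr4:135733029-135733384 (355 bases) and chr4:135733662-135734197 (535 bases), and 97.3% of the list was narrower than the last of these. All 4 overlapped the list with pyruvate, so E2f2 had no site without pyruvate only. Peaks in E2f2 covered 1968 bases with pyruvate and 1436 without, of which 1353 were the same bases. In Rb1 the covered bases were 410 with pyruvate and 947 without, with 399 in common, so the lists differed in opposite ways at these genes.

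Sites of E2f2 with pyruvate only were its narrowest in that list and the farthest from the start of its listed region. They were at chr4:135736429-135736633 (204 bases) and chr4:135741367-135741576 (209 bases), 8120 and 13058 bases from the start, and 24.4% and 27.5% of the list was narrower. The nearest peaks without pyruvate were 2232 and 7170 bases away. The downstream RefSeq start of E2f2 was not placed in mm9, so the distances of the 204- and 209-base peaks from it were not measured. In GRCm38.p6 the windows of the 2 E2f2 starts begin at chr4:136172024 and chr4:136180532. That spacing is similar to the distance of the 204-base peak from the start of the listed region. If the upstream start is the listed one, the 204-base peak therefore lies near the downstream annotated start. Of all peaks with pyruvate between 200 and 300 bases wide, 71.3% had a partner, so lacking one is not rare at this width.

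Counted from the start of its listed region alone, E2f2 had no promoter-proximal peak, by a narrow margin. Its nearest peak inside the gene began 2033 bases from the start site with pyruvate and 2059 bases from it without, just past the 2-kb limit. With a limit of 10 kb, E2f2 counted in both lists, giving 1 gene with pyruvate and 2 without. A further site lay upstream of the gene in both lists, at chr4:135720885-135721275 with pyruvate (390 bases) and chr4:135720877-135721308 without (431 bases), 7034 and 7001 bases from the start. Within 50 kb outside E2f2 there were 3 peaks with pyruvate and 4 without, all of them upstream.

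**Figure D2:**
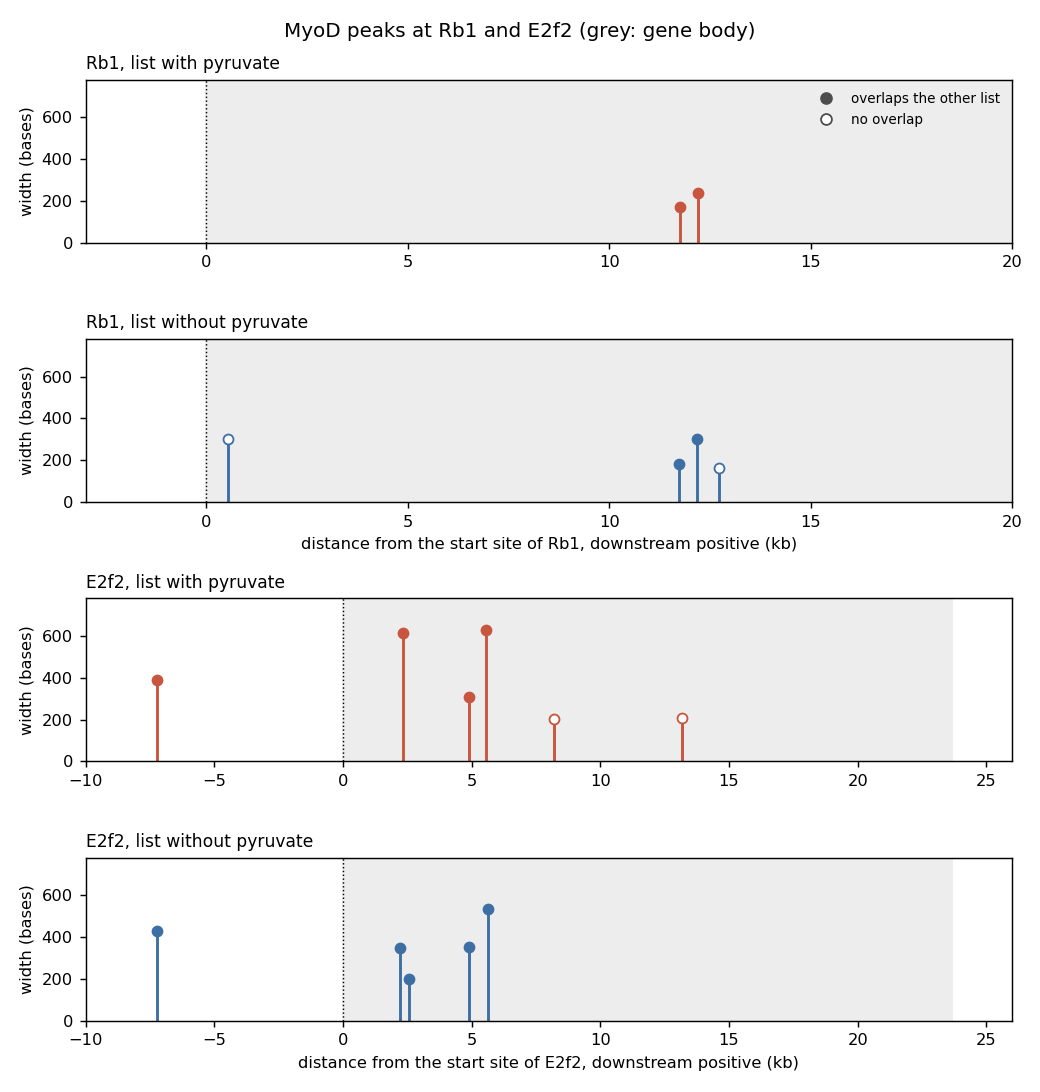
MyoD peaks at Rb1 (upper panels) and E2f2 (lower panels), with distance from the start site on the x axis (kb, downstream positive) and peak width on the y axis (bases); filled stems overlap the other list and open ones do not. At Rb1 the peak 393 bases from the start is found without pyruvate only, and at E2f2 the open peaks are the 204- and 209-base ones with pyruvate.

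Over the 4 genes together, 5 of 7 peaks with pyruvate overlapped the other list, or 71.4%, beside 71.8% of all peaks with pyruvate. Without pyruvate 6 of 8 did, or 75%, beside 44.2% of all peaks in that list. Among these 6, the peaks of 348 and 198 bases overlap the same 616-base peak, so they are not separate shared sites. The peaks come from 2 genes chosen with their peaks known, so the shares are described and the difference was not tested. By width, 2 of the 3 peaks under 200 bases without pyruvate had a partner, beside 19.3% of all such peaks in that list. The 198-base peak is 1 of these 2. Of the peaks from 300 to under 500 bases in that list 3 of 4 had a partner, beside 74.9%. With pyruvate, 1 of the 3 peaks from 200 to under 300 bases did, beside 71.3%. The other peaks of the 4 genes, in classes with 1 or 2 of them, all had a partner, beside 54.8% to 91.5% of all peaks. The part of width in the shares of the 4 genes was not tested.

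Many of these peaks lay close together. With pyruvate 4 of the 7 peaks had another peak of the same list within 500 bases, and without pyruvate 7 of the 8 did. The genes were chosen with their peaks known and peaks in 1 gene share a locus, so these counts describe the genes and are not set against other peaks. Both genes carry the KEGG pathway Cell cycle in the files.

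**Figure D3:**
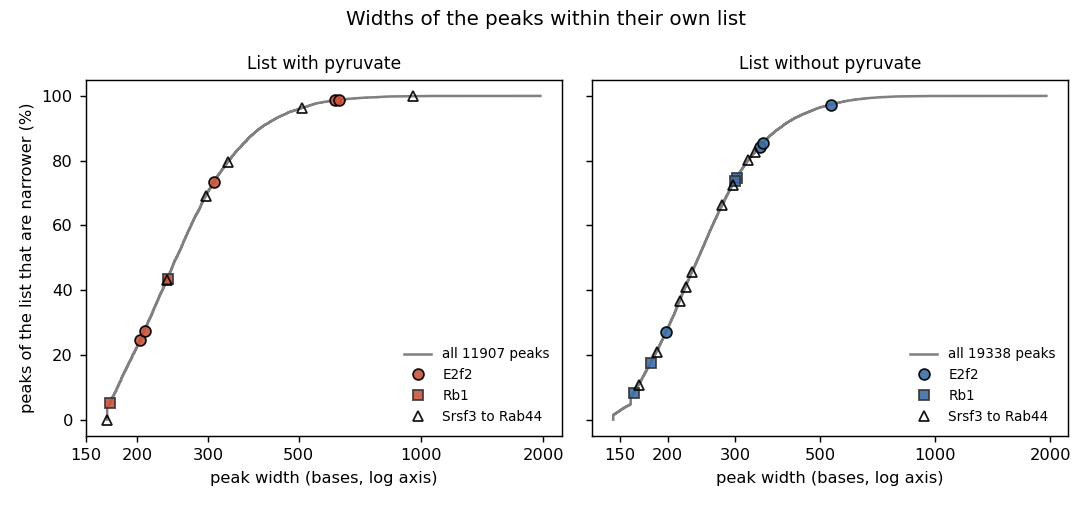
Width of each peak (x axis, bases, log axis) against the percentage of its own list that is narrower (y axis), for E2f2 (circles), Rb1 (squares) and the stretch from Srsf3 to Rab44 (triangles), with the curve for all 11907 peaks with pyruvate on the left and all 19338 without on the right. The E2f2 peaks of 616 and 629 bases and the 957-base peak sit at the top of the list with pyruvate, and the Rb1 peaks there, of 172 and 238 bases, do not reach its middle.

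Having at least 1 peak in both lists was shared by Rb1 and E2f2, and by 55.1% of the genes in the files. With only peaks of at least 250 bases, Rb1 kept peaks without pyruvate alone, since its peaks with pyruvate were 238 and 172 bases wide. The genes most like Rb1, by equal numbers of peaks in each of the 2 libraries and of overlapping pairs and then by the widest peak, were Col14a1, Ncald and Ddr2, out of 44 genes with the same numbers. Their widest peaks differed from those of Rb1 by sums of 6, 12 and 21 bases. For E2f2 the nearest was Rhobtb1, out of 7 genes with the same numbers, with a sum of 60 bases.

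Other cell-cycle genes show where MyoD peaks were found along the same pathway. Of 71 such genes in 9 lists, the 4 included, 29 had a row, 17 in both lists, 2 with pyruvate only and 10 without only. Among all 7235 genes in the files, 3984 (55.1%) were in both lists, and 4704 had a peak with pyruvate against 6515 without. Over all genes, too, those found without pyruvate only thus outnumbered those found with pyruvate only. For the cell-cycle genes the order of these counts depended on list length. With as many of the widest peaks taken without pyruvate as the other list holds, 7 genes had a peak with pyruvate only and 3 without only, and with peaks of at least 250 bases the counts were 4 and 3. Of all RefSeq protein-coding genes 24.7% had a row. The files themselves assign 42 genes to the KEGG pathway Cell cycle, and since only genes with a peak are listed, all 42 have one by construction. Of these 30 were in both lists, 2 with pyruvate only and 10 without only, beside the 55.1% of all genes in both lists.

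Cyclin-dependent kinase inhibitors had no rows at all. This held for 7 of 7 genes, the Cip/Kip genes Cdkn1a, Cdkn1b and Cdkn1c and the INK4 genes Cdkn2a to Cdkn2d. They are short genes, with a median RefSeq length of 5.13 kb and 6 of 7 under 10 kb, in the length class where 9.07% of genes had a row. Other lists varied at that length. A row was found for 4 of 6 such genes of p53 and growth arrest, 2 of 6 of replication and mitosis and 1 of 4 of E, A and B cyclins. It was found for 2 of 2 of D-type cyclins, 1 of 1 of E2F and DP factors and 0 of 1 of DREAM. The part of length was not tested. Of the pocket protein genes, Rb1 had rows and its relatives Rbl1 and Rbl2 had none.

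E2F and DP genes were at the other end, with 8 of 10 having a row and 7 of them in both lists. Their lengths ranged from 7.71 to 127.4 kb, with a median of 25.7 kb. In the class from 10 to under 30 kb 21.6% of all genes had a row. The share was 9.07% below 10 kb, 35.9% from 30 to under 100 kb and 60.4% from 100 kb. E2f2 is among the 10 and was chosen with its peaks known. E2f3, an activating member, had a peak of 540 bases with pyruvate and 355 without, in a flank whose side is unknown. E2f8, a repressor of the family, had 3 peaks with pyruvate and 2 without, the widest 480 and 292 bases. E2f4, a repressor that works with pocket proteins, had 2 with pyruvate and 1 without, near its start in both lists. E2f1 had 1 with pyruvate and 2 without, and a promoter-proximal one without pyruvate only. The dimer partners Tfdp1 and Tfdp2 had 1 each with pyruvate, against 1 and 2 without, and the repressor E2f7 had 1 without pyruvate only (201 bases). The family as a whole had 14 peaks with pyruvate and 14 without, in a comparison of a shorter list with a longer one.

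Among D-type cyclins and their kinases, Ccnd3 had the most peaks. This gene of cyclin D3, which stays present in differentiated muscle cells, had 5 peaks with pyruvate and 5 without, all of them partnered, the widest 554 and 569 bases. Ccnd1, the cyclin D1 gene of dividing myoblasts, had 1 peak with pyruvate and 3 without. Cdk4 had 1 narrow peak with pyruvate only (169 bases), and Cdk6 had 4 without pyruvate only, the widest 292 bases. Ccnd2 had no row. The kinase genes thus had no partnered peak in either list, while Ccnd1 and Ccnd3 did.

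For genes of later phases the counts with a row, 2 of 8 and 7 of 22, were near the 24.7% of RefSeq genes in general. Of 8 genes for E, A and B cyclins and their kinases, Cdk2 had 1 peak with pyruvate and 2 without and Ccnb2 had 1 without only. Of 22 replication and mitosis genes, 7 had a row: Mcm2, Plk1 and Cdc25b in both lists, Mki67 with pyruvate only (169 bases), and Cdc6, Cdt1 and Rrm2 without only. Both Cdt1 peaks also fell in a very long overlapping region, Gm20388, and the only Ccnb2 peak also fell in Rnf111. Without pyruvate, 1 peak each of Cdk2, Cdc25b, Ccnd1 and Gadd45a also fell in another gene region. So did 1 E2f4 peak with pyruvate and 1 E2f8 peak in each list. Of 6 genes of the DREAM complex, which represses cell-cycle genes in resting cells, Lin52 and Rbbp4 had 1 narrow peak each without pyruvate only (147 and 194 bases).

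Of 10 genes of the p53 and growth arrest list, 5 had a row, beside 24.7% of RefSeq genes. Their median length was 6.29 kb, and 4 of the 6 genes under 10 kb had a row, beside 9.07% of all genes of that length. Mdm2, the regulator of p53, had 1 peak near its start in each list. Gadd45g, a growth arrest gene, had 2 with pyruvate and 1 without, the widest 470 and 282 bases, and Gadd45b had 1 in each. Gadd45a and the antiproliferative gene Btg2 had peaks without pyruvate only, the widest 200 and 229 bases. Across all lists, the 10 genes found without pyruvate only had no peak wider than 292 bases.

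**Figure D4:**
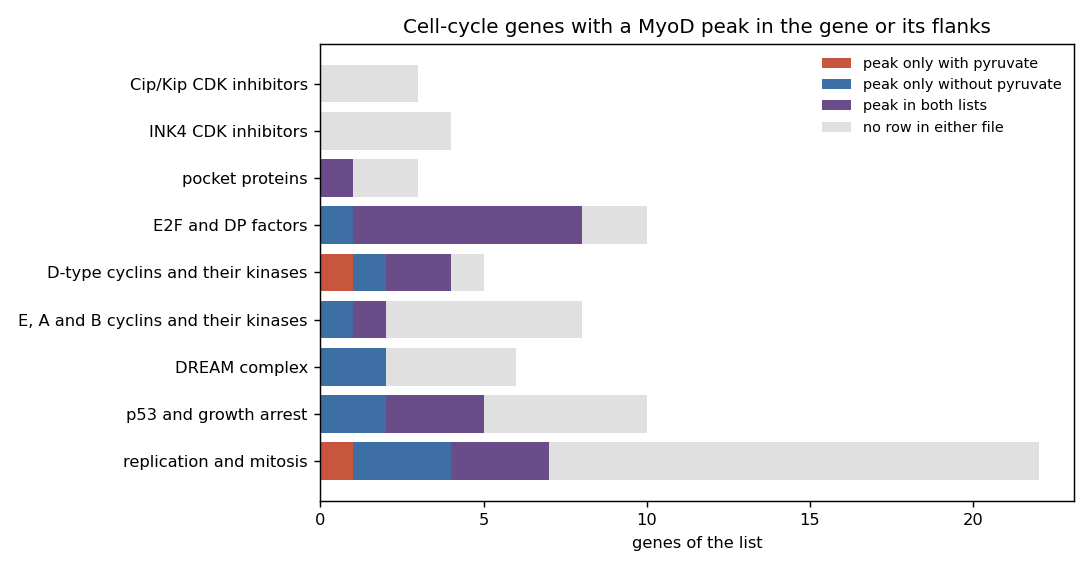
Number of genes (x axis) of each cell-cycle list (rows) with a MyoD peak in the gene or its flanks with pyruvate only, without pyruvate only or in both lists, and in grey those with no row. The bars of both inhibitor lists are grey throughout, while 8 of the 10 E2F and DP genes have a peak.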

How the data were processed

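MyoD was precipitated with antibody SC-760 from sonicated nuclei, and libraries were amplified for 15 cycles around fragments of 250 bp, per the labels' protocols. The submitters' processing notes name bcl2fastq 2.19, Bowtie2 2.1.0, MACS2 2.1.1 and mm9. The calling threshold, the use of the inputs, the gene annotation and the base from which starts count: each was not given in the sources used here.

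Each ChIP library has 1 peak list that the authors deposited, with each peak paired to every gene body or 2000-base flank it touches. The deposited fold enrichment column holds 0 in every numeric row (0 rows differ), so width, end minus start, was the only measure of a peak.

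Rows were reduced to distinct peaks, and peaks were shared at an overlap of 1 base or more. Start sites came from listed gene bodies or from both flanks (5818 genes). The 4 genes and the cell-cycle lists were chosen with earlier results of these data known. Named were the 4 genes, list genes with a peak, neighbours and the 3 most alike genes, of which those after the first are not reported here for E2f2. Gene order and lengths came from RefSeq GRCm38.p6, whose coordinates were not converted to mm9. Sequences at peaks were not analysed here. The overlap code was tested on simulated data. Alternatives covered overlap, start-site window, peak width, list length and gene assignment. The work used matplotlib 3.10.9, scipy 1.17.1, pandas 2.3.3 and numpy 2.4.6 under Python 3.11.15.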

Additional observations from a re-analysis of the deposited data

How the results depend on the processing

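Of 47 alternatives for these counts, 32 stayed within 1.5 times the reported value and 15 moved. The KEGG gene list was added after seeing the data and holds only genes with a row. It gave 30 genes in both lists, against 17. Requiring 250 bases left 3 peaks of the 4 genes with pyruvate and 5 without, of which 3 and 3 were shared, and left 1 of the 4 genes in both lists and 1 without pyruvate only. Taking as many of the widest peaks without pyruvate as the other list holds left 5 there. A 10-kb start-site window gave 1 gene with pyruvate and 2 without. Cell-cycle genes at 250 bases were 8 in both lists, 4 with pyruvate only and 3 without only. At equal list length 7 were with pyruvate only and 3 without only, so the order of those counts turned. Fewer peaks entered by construction in the width and list-length settings. Depth is unknown and limits every absence. No paired analysis was possible because each condition had 1 library.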
